A study of Saccharomyces cerevisiae with 6 samples.

Results

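The genes described here encode the machinery that moves membrane between the endosome, the Golgi and the vacuole of Saccharomyces cerevisiae, budding yeast: the retromer coat, the HOPS and GARP tethers, the lipid kinases of the endosome and the Rab and SNARE proteins of vacuole fusion. Members were 36 listed genes, found through the annotation of the array's probe sets by symbol, or by an accepted synonym for 2 of them (VPS26 is listed as PEP8 and VPS39 as VAM6). All 36 were measured, each by 1 probe set, among 5449 yeast genes tested. Arrays from 3 samples of cells lacking VPS4 (labelled Delta VPS4) were set against arrays from 3 samples of wild type cells, every one harvested in mid-log growth at 26 °C in synthetic medium with the required amino acids. The labels name no strain background, marker or mating type, and they do not state whether replicates were separate cultures. The p-values therefore rest on how far the samples of a group spread, and that spread may be technical.

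Membrane proteins that are to be destroyed enter multivesicular endosomes through the ESCRT complexes, and the Vps4 ATPase recycles the last of these. The endosome has other exits: retromer and sorting nexins return receptors and SNAREs to the Golgi, where GARP tethers the incoming vesicles, while Ypt7 and HOPS dock the mature endosome at the vacuole for fusion. Loss of many of these steps missorts the vacuolar hydrolase carboxypeptidase Y, which is how most of the VPS genes were found.

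Levels are GCRMA values on the log2 scale, and a difference is the mean of the deletion minus the mean of wild type on that scale. VPS4 itself stood at 1.49 ± 0.23 in the deletion, where 0 of 3 arrays were above background, and at 11.44 ± 0.04 in wild type (SD, n = 3 each), at least 760-fold lower in the deletion. Marker genes of the alpha mating type averaged 12.29 to 12.38 on the deletion arrays and 12.55 to 12.75 on the wild type arrays, and those of the a mating type averaged 3.95 to 4.19 on the deletion arrays and 4.55 to 4.81 on the wild type arrays. All 4 alpha genes and all 7 a genes lay above background on every array. With all arrays 2 of each list fell in the deletion (50% and 28.6%), beside 1.46% of all tested probe sets called lower. Without wild type replicate 3, 3 alpha genes and 4 a genes fell (75% and 57.1%), beside 10.1% called lower. The part of these marker genes in the results below was not tested. Among the a genes, wild type replicate 3 was above both other wild type arrays in 3 and below both in 4. AGA2 stood at 3.92 on that array, against 6.10 and 5.63 on wild type replicates 4 and 6. In such bulk RNA, fewer cells that express a gene and less RNA per cell cannot be told apart.

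Wild type replicate 3 stood apart over the whole array, and in the genes described here it mostly lay above the other wild type arrays. Pearson's r across the tested probe sets, which are not independent replicates, was 0.9926 with wild type replicate 4 and with wild type replicate 6, against 0.9991 between replicates 4 and 6. Wild type replicates 4 and 6 were closer to the deletion arrays, at 0.9936 to 0.9943, than to wild type replicate 3. Wild type replicate 3 had 0.9895 to 0.9899 with the deletion arrays. Its value was above both other wild type arrays in 29 of the 36 genes (80.6%) and below both in 3 (8.33%), against 43.1% above and 41.4% below over all tested probe sets. It thus lay outside the other 2 in 88.9% of the members and in 84.4% of all tested probe sets. Its median offset from the mean of the other wild type arrays was 0.18 in the 36 genes and 0.003 over all probe sets. By complex, the median offset was 0.34 for GARP, 0.24 for the phosphatidylinositol 3-kinase genes, 0.18 for retromer and 0.13 for HOPS. It was 0.21 for the remaining VPS genes and 0.20 for the sorting nexins with PEP1. The FAB1 genes had 0.05, and the Rab and SNARE genes 0.02. The main counts of called genes are therefore given with that array and without it.

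**Figure D1:**
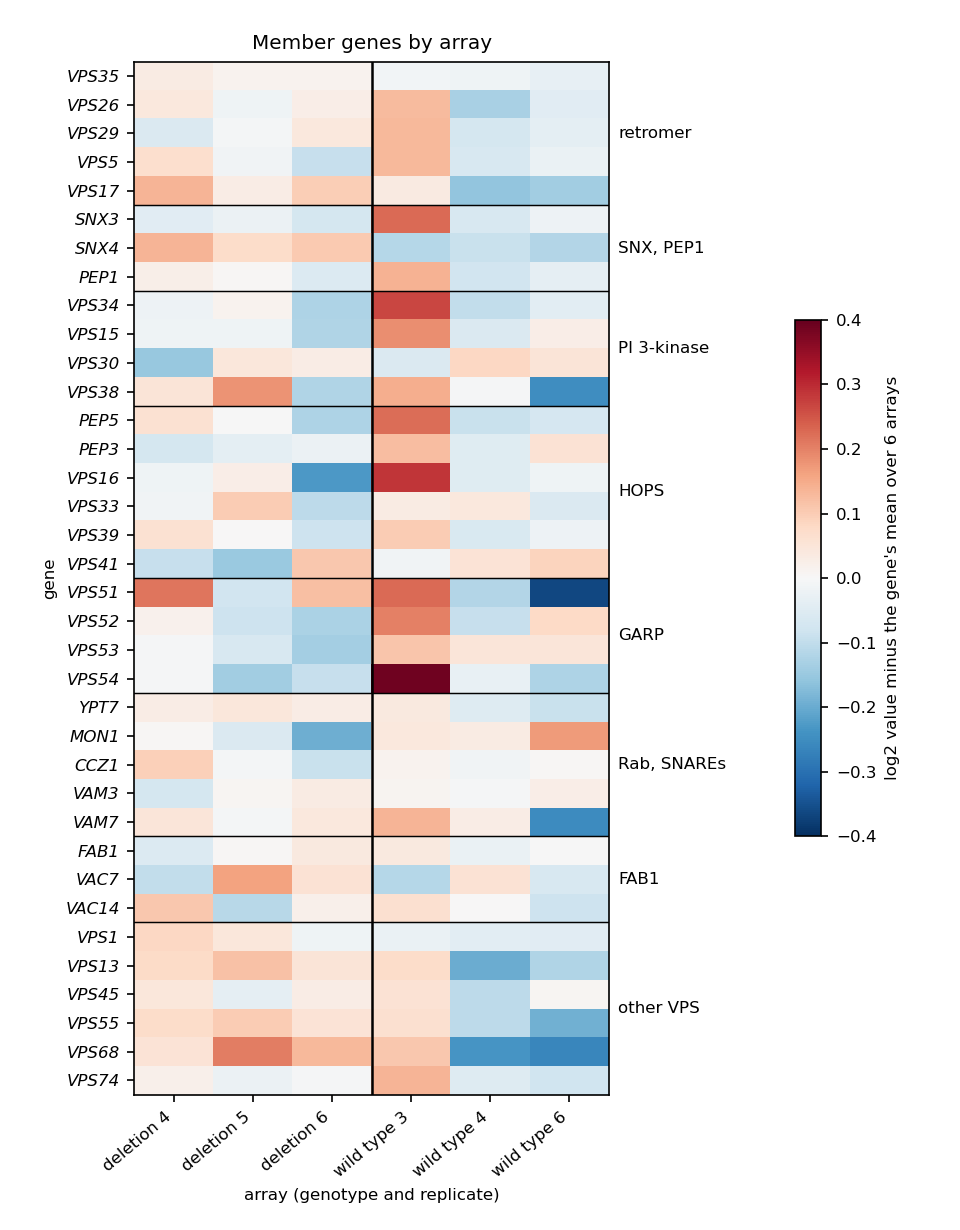
Log2 level of each gene (rows, by complex) on each array (columns, the 3 deletion arrays left of the 3 wild type arrays), drawn as the difference from that gene's mean over 6 arrays. The column of wild type replicate 3 is above both other wild type arrays in 29 of 36 genes, and of the 3 genes higher on every deletion array (VPS35, SNX4 and VPS1) SNX4 has the largest difference.

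With all 6 arrays, 1 of the 36 genes rose in the deletion, 0 fell and 35 did not pass the test (limma, Benjamini-Hochberg over 5498 probe sets, threshold 0.05). That is 2.78% of the members, beside 4.27% of all tested probe sets called in either direction, 2.82% higher and 1.46% lower. At an unadjusted p under 0.05 there were 4, or 11.1% of the members beside 17.4% of all probe sets, and without wild type replicate 3 there were 11, or 30.6% beside 33.9%. The groups of arrays did not overlap for 5 genes, higher in the deletion for VPS35, SNX4 and VPS1 and lower for VPS53 and MON1; this is 13.9%, beside 24.8% of all probe sets (13.0% higher and 11.8% lower). Without wild type replicate 3, when 3 arrays face 2, the count was 14, with 11 higher and 3 lower, which is 38.9% beside 50.5% of all probe sets (24.9% higher and 25.7% lower). The median difference was −0.0098, against −0.0019 over all tested probe sets, and the differences ran from −0.16 for MON1 to 0.26 for VPS68.

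The change of these genes was bounded, though at the narrower of 2 bounds less often than over the whole array. The 95% interval of the difference lay within a 1.5-fold change either way for all 36 genes, against 91.9% of all tested probe sets. It lay within a 1.2-fold change for 18 of them (50%), against 62.8% of all tested probe sets. The widest interval was that of VPS51, from −0.20 to 0.55. Every one of the 36 was above background on all 6 arrays, as were 5338 of the 5498 tested probe sets.

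SNX4 encodes a sorting nexin that carries the exocytic SNARE Snc1 from endosomes back to the Golgi and that also serves selective autophagy. Its level was 9.33, 9.27 and 9.30 on deletion replicates 4, 5 and 6, against 9.08, 9.11 and 9.08 on wild type replicates 3, 4 and 6. The deletion arrays all lay above the wild type arrays, and wild type replicate 3 sat with the other wild type arrays here. SNX4 rose 1.16-fold, a difference of 0.21 ± 0.04 (SE; limma adjusted p = 0.0314). Without wild type replicate 3 the difference was also 0.21 ± 0.04 (limma adjusted p = 0.00462). The call was lost when any one of the other arrays was left out, with limma adjusted p-values of 0.143, 0.109 and 0.142 without deletion replicates 4, 5 and 6, and of 0.0888 and 0.123 without wild type replicates 4 and 6, although the difference stayed between 0.20 and 0.23. It was also lost when all probe sets of the array were tested (limma adjusted p = 0.0513).

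The Snx4 protein works in pairs with Atg20 or Snx41, whose genes are among the other genes of these steps. ATG20 stood at 8.03, 7.83 and 7.97 in the deletion, against 7.87, 7.46 and 7.72 in wild type, and the groups overlapped. Its difference of 0.26 ± 0.11 (SE) did not pass (limma adjusted p = 0.305), but it rose without wild type replicate 3, by 0.35 ± 0.09 (limma adjusted p = 0.0205). SNX41 differed by −0.041 ± 0.058, with a 95% interval from −0.18 to 0.10. MVP1, a further sorting nexin of the endosome, differed by 0.069 ± 0.035, and its groups did not overlap.

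SNX3, the adaptor through which retromer takes up the iron permease Ftr1, differed by −0.095 ± 0.079 (SE) and did not pass. It stood at 9.10, 9.12 and 9.07 in the deletion, against 9.37, 9.08 and 9.12 in wild type, so that the single high array was wild type replicate 3. Without that array the difference was −0.0053 ± 0.040. PEP1, the receptor that sorts carboxypeptidase Y and that retromer returns to the Golgi, differed by −0.018 ± 0.063, with a 95% interval from −0.17 to 0.13.

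Of the 5 genes of the retromer coat, 0 passed the test with all arrays (limma; 1 at an unadjusted p under 0.05), and their median difference was 0.034. VPS35, VPS26 and VPS29 encode the trimer that binds cargo. VPS35 was slightly higher on every deletion array, at 9.26, 9.25 and 9.25 in the deletion and 9.22, 9.21 and 9.20 in wild type, but its interval ran from −0.043 to 0.12 and it did not pass (limma adjusted p = 0.637). VPS26 and VPS29 differed by 0.034 ± 0.069 and −0.014 ± 0.062 (SE).

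VPS5 and VPS17 encode the sorting nexin pair that bends the membrane under the retromer trimer. VPS17 stood at 9.61, 9.50 and 9.57 in the deletion, against 9.51, 9.32 and 9.33 in wild type. The groups overlapped through wild type replicate 3, the highest wild type array. The difference of 0.17 ± 0.06 (SE) did not pass with all arrays (limma adjusted p = 0.217), and without wild type replicate 3 VPS17 rose 1.18-fold, by 0.24 ± 0.04 (limma adjusted p = 0.00306). Its partner VPS5 differed by −0.026 ± 0.074 with all arrays and by 0.033 ± 0.065 without that array, and neither value passed.

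The phosphatidylinositol 3-kinase Vps34 makes the endosomal lipid that sorting nexins and Vam7 bind, and it works with the protein kinase Vps15 and the subunits Vps30 and Vps38. Of these 4 genes 0 passed, with or without wild type replicate 3 (limma; 0 at an unadjusted p under 0.05 in either fit). VPS34 and VPS15 differed by −0.086 ± 0.101 and −0.102 ± 0.073 (SE). VPS15, which had the smallest p of the 4, stood at 8.57, 8.57 and 8.47 in the deletion, against 8.77, 8.53 and 8.61 in wild type. Wild type replicate 3 was the highest array for VPS34 and for VPS15, above the mean of the other wild type arrays by 0.34 and 0.20. VPS30, which also serves autophagy, and VPS38, the subunit particular to the endosomal complex, differed by −0.050 ± 0.074 and 0.071 ± 0.122.

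HOPS shares a core of Pep5, Pep3, Vps16 and Vps33 with the endosomal tether CORVET, and adds Vps39 and Vps41, which bind Ypt7 on the membranes to be joined. Of the 6 genes 0 passed, with or without wild type replicate 3 (limma; 0 at an unadjusted p under 0.05 in either fit). All 6 differences were below 0 with all arrays, from −0.15 for VPS16 to −0.012 for VPS33, with a median of −0.066. Without wild type replicate 3, 3 of the 6 were above 0 and 3 below, and the median was −0.020. PEP3, which had the smallest p, stood at 7.66, 7.69 and 7.71 in the deletion and at 7.86, 7.68 and 7.79 in wild type, a difference of −0.089 ± 0.061 (SE; limma adjusted p = 0.540). VPS33, the SNARE-binding subunit, had the difference nearest to 0, with an interval from −0.17 to 0.14.

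GARP, the tether of 4 subunits at the Golgi, had 0 genes that passed with all arrays or without wild type replicate 3 (limma; 1 and 2 at an unadjusted p under 0.05), and with all arrays a median difference of −0.13. VPS53 stood at 8.70, 8.64 and 8.57 in the deletion, against 8.82, 8.75 and 8.75 in wild type. The deletion arrays all lay below the wild type arrays, by −0.14 ± 0.05 (SE), and the difference did not pass (limma adjusted p = 0.238, or 0.146 without wild type replicate 3). VPS54 and VPS52 differed by −0.16 ± 0.13 and −0.13 ± 0.09, and wild type replicate 3 was the highest array for each. VPS51, the subunit that binds the SNARE Tlg1, had the widest wild type spread of the 36 genes: it stood at 7.09, 6.79 and 6.99 in the deletion and at 7.10, 6.75 and 6.51 in wild type. Its difference was 0.17 ± 0.16 with all arrays and 0.33 ± 0.11 without wild type replicate 3 (limma adjusted p = 0.657 and 0.0547).

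Among the Rab and SNARE genes of vacuole fusion, 0 of 5 passed with all arrays (limma; 0 at an unadjusted p under 0.05), with a median difference of −0.0016. YPT7, the Rab GTPase of the vacuole, stood at 11.40, 11.41 and 11.40 in the deletion, against 11.41, 11.32 and 11.28 in wild type. Wild type replicate 3 was level with the deletion arrays, and without it YPT7 rose 1.07-fold, by 0.10 ± 0.02 (SE; limma adjusted p = 0.0109), against 0.068 ± 0.036 with all arrays (limma adjusted p = 0.395). MON1 and CCZ1 encode the pair that loads Ypt7 with GTP. MON1 stood at 7.51, 7.45 and 7.31 in the deletion and at 7.55, 7.54 and 7.68 in wild type, lower on every deletion array, but the difference of −0.16 ± 0.07 did not pass (limma adjusted p = 0.325). CCZ1 differed by −0.0016 ± 0.055. The SNARE genes VAM3 and VAM7 differed by −0.021 ± 0.044 and 0.057 ± 0.107.

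Fab1 turns the lipid made by Vps34 into its doubly phosphorylated form, with Vac14 as scaffold and Vac7 as activator. Of these 3 genes 0 passed with or without wild type replicate 3 (limma; 0 at an unadjusted p under 0.05 with all arrays). FAB1 was the most even, at 9.01, 9.07 and 9.10 in the deletion and 9.10, 9.04 and 9.06 in wild type, with an interval from −0.11 to 0.10. VAC7, which had the smallest p, differed by 0.080 ± 0.082 (SE; limma adjusted p = 0.697), and VAC14 by 0.012 ± 0.080.

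The remaining 6 VPS genes act at several steps, and their median difference of 0.11 was the highest of the 8 groups. None passed with all arrays (limma; 1 at an unadjusted p under 0.05), and 3 of the 6 rose without wild type replicate 3. That is 50% of the group, beside 22.0% of all tested probe sets called in that fit, 11.9% higher and 10.1% lower. Wild type replicate 3 was above both other wild type arrays in all 6 genes, with a median offset of 0.21. VPS68 and VPS55 encode membrane proteins that form a complex of the late endosome. VPS68 stood at 10.97, 11.13 and 11.05 in the deletion, against 11.03, 10.68 and 10.66 in wild type. VPS55 stood at 10.38, 10.40 and 10.36 in the deletion, against 10.37, 10.20 and 10.11 in wild type. For both, wild type replicate 3 lay within the range of the deletion arrays while the other wild type arrays lay below it.

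With all arrays VPS68 differed by 0.26 ± 0.10 (SE; limma adjusted p = 0.255) and VPS55 by 0.15 ± 0.06 (limma adjusted p = 0.288), and neither passed. Without wild type replicate 3, VPS68 rose 1.30-fold, by 0.38 ± 0.04 (limma adjusted p = 0.000122), and VPS55 rose 1.17-fold, by 0.22 ± 0.03 (limma adjusted p = 0.00135). VPS13, a lipid transfer protein of membrane contact sites, had wild type replicate 3 within the range of the deletion arrays too: 9.38, 9.42 and 9.36 in the deletion, against 9.38, 9.10 and 9.18 in wild type. It differed by 0.16 ± 0.07 with all arrays (limma adjusted p = 0.314) and rose by 0.24 ± 0.04 without wild type replicate 3 (limma adjusted p = 0.00280).

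VPS1, the dynamin-like GTPase of Golgi and endosome, was higher on every deletion array, at 10.30, 10.27 and 10.20, against 10.20, 10.18 and 10.18 in wild type. The difference of 0.074 ± 0.036 (SE) did not pass (limma adjusted p = 0.353). VPS45, which guides the assembly of SNAREs built on the syntaxins Pep12 and Tlg2, differed by 0.027 ± 0.058. VPS74, which holds glycosyltransferases in the Golgi, differed by −0.0032 ± 0.061.

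**Figure D2:**
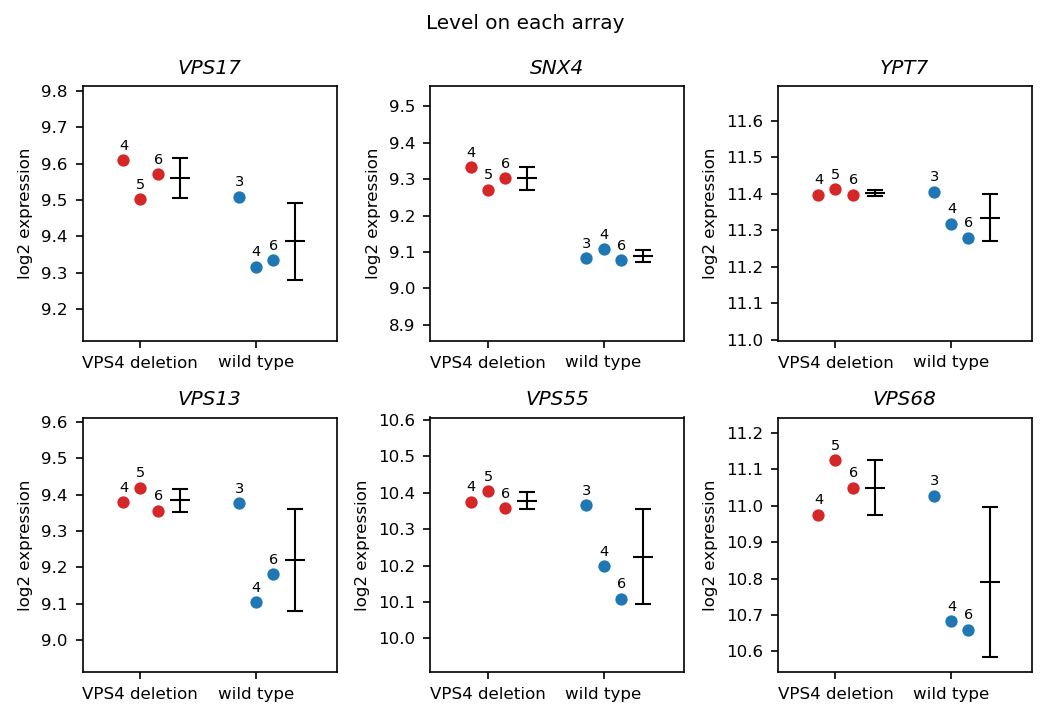
Log2 level (vertical axes, each spanning the same range) of VPS17, SNX4, YPT7, VPS13, VPS55 and VPS68 on each array, with the replicate number beside each point and the group mean ± SD (n = 3) to the right; the deletion is left of wild type. SNX4 separates the genotypes on all arrays, and in the other 5 genes wild type replicate 3 lies above the other wild type arrays.

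In all, 6 of the 36 genes rose without wild type replicate 3 and 0 fell (limma; SNX4, VPS17, YPT7, VPS13, VPS55 and VPS68). That is 16.7% of the members, beside 22.0% of all tested probe sets called in the same fit, 11.9% higher and 10.1% lower. The 36 genes then had a median difference of 0.044, against −0.0036 over all probe sets. Of the 36, 25 were above 0 and 11 below, against 15 above and 21 below with all arrays. Over all tested probe sets 2659 were above 0 and 2834 below without wild type replicate 3, against 2686 and 2810 with all arrays. The fold of the 6 lay between 1.07 for YPT7 and 1.30 for VPS68.

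**Figure D3:**
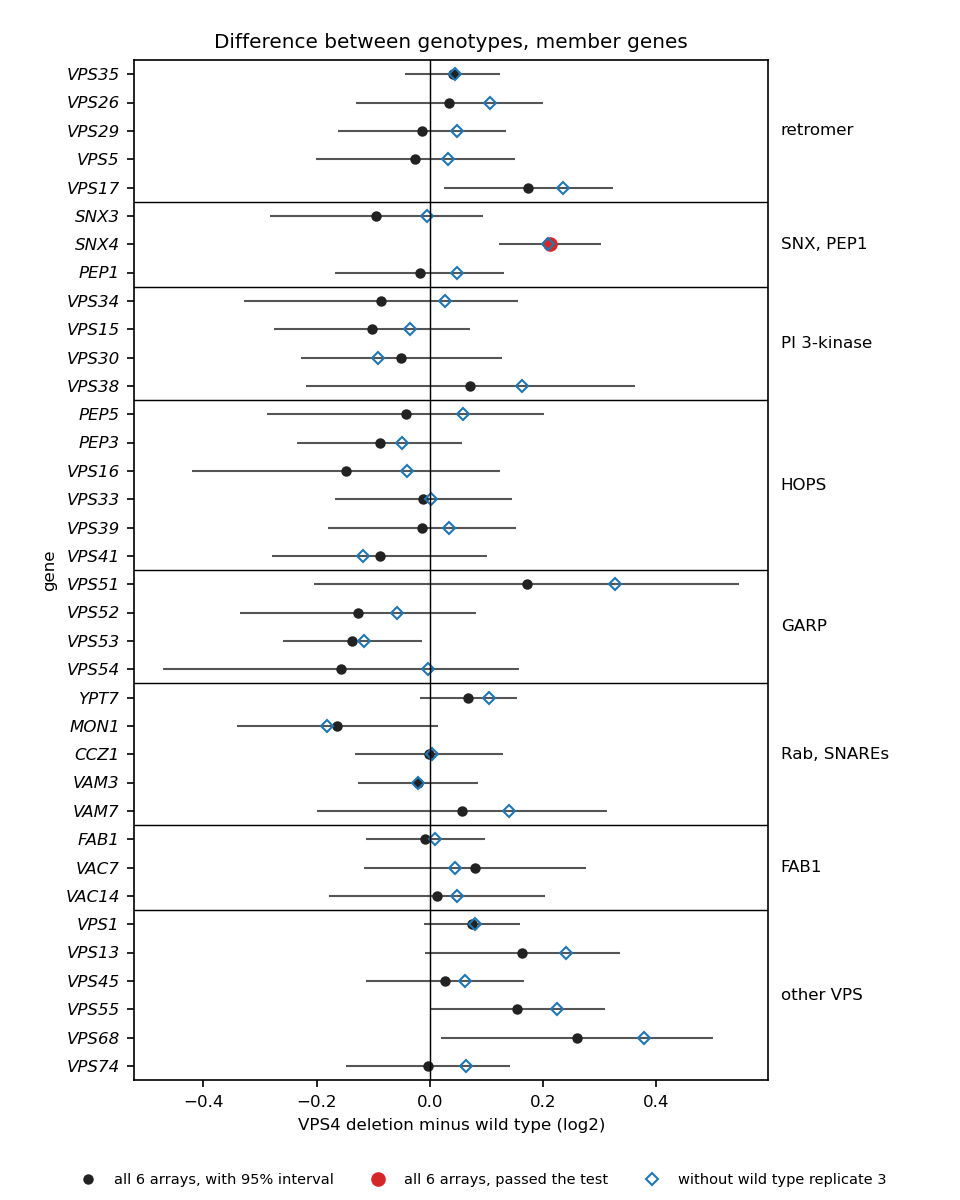
Difference between the deletion and wild type (horizontal axis, log2) for each of the 36 genes, by complex: filled points with 95% intervals are the fit to all 6 arrays, the larger red point is SNX4, which passed the test, and open diamonds are the fit without wild type replicate 3. All intervals lie within a 1.5-fold change, and the diamonds of VPS68, VPS55, VPS13 and VPS17 lie further above 0 than their filled points.

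Another 53 genes were listed as cargo or partners of the same steps, and 52 were measured. With all arrays 1 rose and 0 fell (limma), or 1.92% beside the 4.27% of all probe sets. The groups of arrays did not overlap for 14 of the 52, with 8 higher and 6 lower in the deletion. That is 26.9%, beside 24.8% of all tested probe sets. The gene that rose was PEP12, the endosomal syntaxin on which CORVET and Vps45 act. It stood at 9.31, 9.29 and 9.34 in the deletion and 8.73, 8.65 and 8.79 in wild type. PEP12 rose 1.5-fold, by 0.59 ± 0.05 (SE; limma adjusted p = 0.00381), and it passed whichever single array was left out. The genes of the Rab Vps21 and of the CORVET subunits Vps3 and Vps8 differed by 0.027 ± 0.037, −0.100 ± 0.101 and −0.049 ± 0.107.

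None of the other steps had a partner gene that passed with all arrays (limma; 8 at an unadjusted p under 0.05). With PEP12 these make 9 of the 52, or 17.3%, beside 17.4% of all tested probe sets. The gene with the smallest p of each of the other steps follows. GYP7, whose product switches Ypt7 off, stood at 7.95, 8.03 and 7.94 in the deletion, against 7.53, 7.70 and 7.72 in wild type, a difference of 0.33 ± 0.07 (SE; limma adjusted p = 0.0502, or 0.00965 without wild type replicate 3). GGA1, one of 2 related Golgi adaptors, stood at 8.41, 8.42 and 8.47 in the deletion and at 8.21, 7.69 and 7.63 in wild type, where wild type replicate 3 was the highest. GGA1 differed by 0.59 ± 0.15 (limma adjusted p = 0.0869) and rose by 0.77 ± 0.05 without that array (limma adjusted p = 9.44e-06), while GGA2 differed by 0.013 ± 0.027. RGP1, a subunit of the exchange factor of the Golgi Rab Ypt6, differed by 0.13 ± 0.04 (limma adjusted p = 0.140), and its groups did not overlap. Without wild type replicate 3 RGP1 rose by 0.14 ± 0.04 (limma adjusted p = 0.0383).

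The smallest p among the lipid kinase partners was that of FIG4, a phosphatase bound to Vac14, which differed by −0.15 ± 0.05 (SE; limma adjusted p = 0.203). Among cargo it was that of VTH1, a relative of PEP1, which differed by −0.19 ± 0.08 (limma adjusted p = 0.278) on a probe set that can match several transcripts. For both FIG4 and VTH1 the deletion arrays all lay below the wild type arrays. FTR1, the cargo of Snx3, was 11.53, 11.60 and 11.55 in the deletion and 10.59, 11.56 and 11.57 in wild type, where wild type replicate 3 alone was low. Its difference was 0.32 ± 0.25 with all arrays and −0.0042 ± 0.025 without that array. Without wild type replicate 3, 13 of the 52 rose and 0 fell, among them PRC1, the gene of carboxypeptidase Y itself, by 0.14 ± 0.03 (limma adjusted p = 0.00327), and SEC17, the SNARE adaptor of vacuole fusion, by 0.19 ± 0.03 (limma adjusted p = 0.00115). This is 25.0%, all higher, beside the 11.9% of all tested probe sets called higher and the 10.1% called lower in that fit. Wild type replicate 3 was above both other wild type arrays in 61.5% of the 52 genes and below both in 28.8%. Over all tested probe sets the shares were 43.1% and 41.4%.

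**Figure D4:**
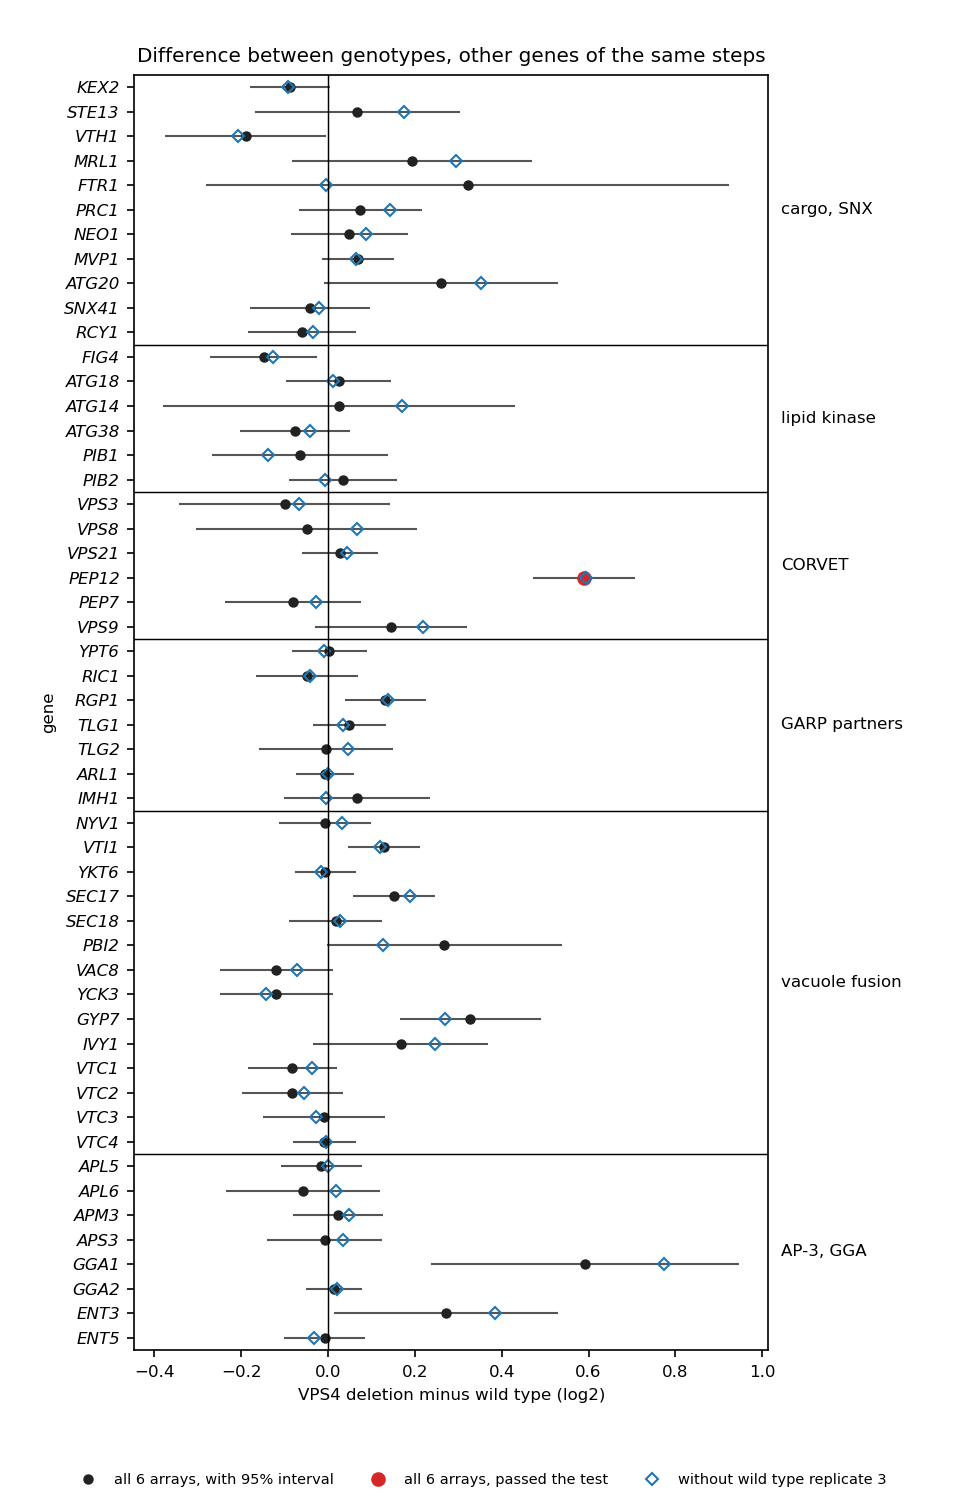
Difference between the deletion and wild type (horizontal axis, log2) for the 52 measured cargo and partner genes, by step, with symbols as in the plot of the 36 genes. PEP12 passed the test with all arrays, and GGA1 and FTR1 are the genes whose filled points and open diamonds lie furthest apart.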

How the data were processed

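Biotin-labelled RNA of 6 samples was measured on Affymetrix arrays. The authors deposited 1 log2 value for each probe set and array, made with GCRMA per the submitters' processing notes; a version and a genome build are not given in the sources used here. GCRMA corrects background from probe sequence and normalizes the arrays to a common distribution, so a shift of all genes together would not show. The number of arrays, 3 per group, limits the precision.

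Genes were assigned from the platform's annotation, with 12 symbols updated through a gene table of assembly R64. A single symbol was found for 7244 of 10928 probe sets and several for 1; tests used the 5498 named ones of Saccharomyces cerevisiae. Signal counted as above background when it exceeded percentile 95 of 1747 probe sets taken as not of Saccharomyces cerevisiae. These were the named probe sets whose gene was absent from that gene table, and the 1 with several symbols. On each array 97.5% to 98.0% of tested probe sets lay above background.

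Linear models by genotype were fitted in R 4.3.3 with limma 3.58.1, its variances moderated with a trend on mean level, and tests were two-sided with Benjamini-Hochberg adjustment over all 5498 probe sets; intervals and SEs are moderated. Fits were tested on simulated data. The members, the lists and the rule for named genes were chosen with earlier results of these data known. All 36 members are named, with array values for those that passed, or that did not overlap and differed by 0.2 or more, and for the gene with the smallest p in each complex; partner genes are named if they passed, and otherwise by the smallest p in each step. Further array values, and some of the cargo and partner genes, were picked after their values were seen. An exact permutation test of 3 against 3 arrays cannot go below 0.1. The alternatives are listed with their effect at the end.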

Additional observations from a re-analysis of the deposited data

How the results depend on the processing

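The count of members called was 1 with all arrays and stayed at 1 without the variance trend, with a robust prior, without dim probe sets, with quantile normalization, with median centring and at a threshold of 0.1. It was 0 with all probe sets tested and at a threshold of 0.01 (limma; 4 at an unadjusted p under 0.05), 6 with array weights, where wild type replicate 3 had the lowest weight (0.143), and 0 to 6 when 1 array was left out (6 without wild type replicate 3, 0 without any one of the others). For all tested probe sets the count was 235 with all arrays, 1036 with array weights, 67 and 422 at thresholds of 0.01 and 0.1, and 22 (without deletion replicate 5) to 1212 (without wild type replicate 3) with 1 array left out. For the cargo and partner genes it was 1 with all arrays, 2 without the trend, with a robust prior, without dim probe sets or with quantile normalization, 11 with array weights, 4 at a threshold of 0.1, and 1 to 13 with 1 array left out (13 without wild type replicate 3). The titles of both genotypes hold the numbers 4 and 6. Deviations of same-numbered arrays from their group means had r = 0.021 and −0.059 over probe sets. Wild type replicate 3 shifts the mean of its group, so these values cannot decide whether the arrays pair. With the title number as a replicate block, the counts were 858 probe sets, 6 members and 10 cargo and partner genes. The block leaves wild type replicate 3 and deletion replicate 5 without a partner. The difference between genotypes in that fit therefore rests on the arrays numbered 4 and 6 alone, and wild type replicate 3 does not enter it. VPS51 gained a call under the block (0.41, adjusted p = 0.0190), and YPT7, called without wild type replicate 3, did not pass under it (adjusted p = 0.0530). The median difference of the members, −0.0098 with all arrays, ran from −0.0358 to 0.0442 with 1 array left out (0.0442 without wild type replicate 3), and was 0.0370 under the block. Leaving out deletion replicate 4 (0.0006) or 6 (0.0113) also put it above 0. Of 576 recomputed values of members, 554 kept their side of the threshold, 15 gained a call and 7 lost one, and 51 uncalled values changed sign, in 19 genes; the cause was not tested.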

Other observations

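The genes next to the 36 members on the chromosomes, taken from the R64 gene table, were called about as often as the whole array: 62 of 72 neighbours were measured and 3 passed the test (limma), or 4.84% beside 4.27% of all tested probe sets. Without wild type replicate 3, 14 passed, 9 higher and 5 lower, or 22.6% beside 22.0%. UBI4, the polyubiquitin gene beside VPS13, rose by 0.28 ± 0.05 (SE; adjusted p = 0.0366), and RGS2, a regulator of G protein signalling beside VAM3, rose by 0.68 ± 0.10 (adjusted p = 0.0163). FUS2, a cell fusion gene beside PEP5, fell by 1.57 (adjusted p = 0.0144). SNX4 has 1 measured neighbour, TAD2, which differed by −0.012 ± 0.078, and the neighbours of VPS68, ALR1 and YGK3, differed by −0.0015 ± 0.043 and 0.012 ± 0.095. VPS5 overlaps VAM10, which differed by −0.0062 ± 0.098, and VPS38 overlaps DCR2, which differed by −0.19 ± 0.08 (adjusted p = 0.305).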
